A study of Mus musculus with 20 samples.

Results

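The genes described here are those of the proteasome, the protease complex that degrades ubiquitin-tagged proteins, in TCRαβ+CD8αα+ intraepithelial lymphocytes (IELs), T cells that sit between the epithelial cells of the mouse gut. Members were all gene symbols that start with Psma, Psmb, Psmc, Psmd, Psme, Psmf or Psmg followed by a digit, without symbols holding "-ps". This gave 50 genes of 25933 over all tables, of which 48 were listed in all 20 per-sample tables. Among the 50, Psmc3ip and Psme3ip1 match by symbol but encode no proteasome subunit, and Psme3ip1 was listed only in the Tcf7 tables. Psma8, the alpha subunit of testis, averaged 0.0492 FPKM in the RFP experiment and stayed below the filter on low values in every experiment that listed it. The filter left 48 members for the test in the RFP, Bcl6 and Prdm1 experiments and 49 in the Tcf7 experiment.

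The libraries were bulk RNA-seq of sorted IELs from the small intestine of mice at steady state. RFP+CD160+ and RFP-CD160- CD8αα+ αβ IELs (3 libraries each) came from mice of genotype Bcl6-RFP/RFP, in which a red fluorescent reporter is tied to the transcription factor gene Bcl6. As the cells were sorted on the reporter and on CD160, the levels of Bcl6 and Cd160 in them are no finding. All CD8αα+ αβ IELs were taken from Bcl6fl/fl Cd8cre, Prdm1fl/fl Cd8cre and Tcf7fl/fl Cd8cre mice and from Bcl6fl/fl, Prdm1fl/fl and Tcf7fl/fl littermates without Cre (2 libraries per group). Cd8cre is present in the knockouts alone, so any effect of Cre itself cannot be told apart from that of the deletion. The deleted genes encode the transcription factors BCL6, BLIMP1 (from Prdm1) and TCF1 (from Tcf7). Another 2 libraries of genotype Bcl6-RFP/RFP, titled LI and with small intestine as their labelled tissue, carry no sort gate in the labels and enter no test. The labels give no age and do not say whether the libraries of a group came from separate animals, so p-values measure the spread between these libraries, which may be technical.

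The core particle of the proteasome is a barrel of alpha and beta subunits, with proteolytic sites on the beta subunits Psmb5, Psmb6 and Psmb7. Under interferon, Psmb8, Psmb9 and Psmb10 take their place in the immunoproteasome, and the cap PA28 (Psme1 with Psme2) is induced, which changes the peptides made for MHC class I. The regulatory particle unfolds substrates with the ATPases Psmc1 to Psmc6 and strips ubiquitin in its lid, and chaperones such as Psmg1 with Psmg2 start the assembly of the alpha ring. The transcription factor NRF1 (Nfe2l1), which binds antioxidant response elements, is known to raise the subunit genes together when proteasome activity is low.

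Promoters are shown for the members on which the sorted-cell comparison turns, from 250 bases before to 50 bases after the RefSeq start (GRCm38.p6), 5′ to 3′ on the strand of the gene. Psmg1 (chromosome 16), Psme1 (chromosome 14) and Psmb8 (chromosome 17) were higher in RFP+ cells. Psmc1 (chromosome 12) and Psma5 (chromosome 3) were lower. Psmb5 (chromosome 14) is the constitutive counterpart of Psmb8. Capitals mark a match to the interferon-stimulated response element (GAAA, any 2 bases, GAAA) in Psme1 and to the antioxidant response element (TGACNNNGC) in Psmb5, searched on both strands. The intervals are chr16:95990911-95991210, minus strand for Psmg1, chr14:55578244-55578543, plus strand for Psme1 and chr17:34197945-34198244, plus strand for Psmb8. They are chr12:100109952-100110251, plus strand for Psmc1, chr3:108256676-108256975, plus strand for Psma5 and chr14:54617946-54618245, minus strand for Psmb5.
Psmg1: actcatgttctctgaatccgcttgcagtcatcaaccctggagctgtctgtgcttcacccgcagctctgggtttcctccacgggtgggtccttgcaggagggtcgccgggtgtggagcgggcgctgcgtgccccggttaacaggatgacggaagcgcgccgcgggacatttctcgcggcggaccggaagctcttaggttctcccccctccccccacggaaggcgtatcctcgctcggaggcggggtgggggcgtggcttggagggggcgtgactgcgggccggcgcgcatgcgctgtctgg
Psme1: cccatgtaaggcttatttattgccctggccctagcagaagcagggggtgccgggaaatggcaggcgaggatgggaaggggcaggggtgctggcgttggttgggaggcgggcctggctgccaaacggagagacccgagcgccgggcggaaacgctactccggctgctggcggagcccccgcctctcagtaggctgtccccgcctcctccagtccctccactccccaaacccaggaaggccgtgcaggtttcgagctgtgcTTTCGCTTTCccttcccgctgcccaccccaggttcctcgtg
Psmb8: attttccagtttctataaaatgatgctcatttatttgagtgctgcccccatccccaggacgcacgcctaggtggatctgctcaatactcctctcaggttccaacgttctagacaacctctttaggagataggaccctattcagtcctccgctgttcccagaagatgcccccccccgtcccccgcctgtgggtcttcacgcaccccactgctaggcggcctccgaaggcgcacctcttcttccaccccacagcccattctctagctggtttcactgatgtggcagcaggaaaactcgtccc
Psmc1: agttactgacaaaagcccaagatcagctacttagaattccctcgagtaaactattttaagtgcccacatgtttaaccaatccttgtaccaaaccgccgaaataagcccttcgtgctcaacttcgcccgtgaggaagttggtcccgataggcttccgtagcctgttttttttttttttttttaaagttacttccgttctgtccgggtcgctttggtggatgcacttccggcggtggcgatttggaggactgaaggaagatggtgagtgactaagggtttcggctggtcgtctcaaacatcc
Psma5: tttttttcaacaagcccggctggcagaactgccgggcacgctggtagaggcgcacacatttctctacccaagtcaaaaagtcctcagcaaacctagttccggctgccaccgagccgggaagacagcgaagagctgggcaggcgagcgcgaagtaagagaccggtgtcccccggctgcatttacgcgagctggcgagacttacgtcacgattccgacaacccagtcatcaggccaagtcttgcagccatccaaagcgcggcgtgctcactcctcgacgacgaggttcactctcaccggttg
Psmb5: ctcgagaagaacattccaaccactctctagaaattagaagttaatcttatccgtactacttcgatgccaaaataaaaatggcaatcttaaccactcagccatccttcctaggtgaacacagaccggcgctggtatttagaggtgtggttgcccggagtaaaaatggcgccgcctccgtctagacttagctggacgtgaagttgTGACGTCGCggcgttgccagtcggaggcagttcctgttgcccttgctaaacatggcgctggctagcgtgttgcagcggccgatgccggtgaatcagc

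Over all members, 41 genes had 44 promoter entries in the RefSeq table. The antioxidant response element was in 6 of the 44 (13.6%), those of Psmb5, Psmb6, Psmc6, Psmd9, Psmd12 and Psme4, against 12.4% of 32851 promoters of all genes. The interferon-stimulated response element was in 5 of 44 (11.4%), those of Psmb3, Psmd4, Psmd9, Psme1 and Psmg4, against 3.44% of all promoters. CCAAT was in 14 of 44 (31.8%), against 37.4%. In Psme1 the match lies from 9 to 18 bases after the start, and in Psmb5 from -47 to -39. The printed windows of Psmb8, Psmg1, Psmc1 and Psma5 hold neither of the response elements, which says only that these letters are not in these windows. The members are spread over 16 chromosomes, with 10 on chromosome 11.

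Levels were read per length in FPKM, fragments per kilobase of transcript scaled to library depth, in the RFP experiment. Psme1 had the highest mean of the 6 sorted libraries (85 FPKM, 69.4 to 98.7), followed by Psmb10 (74.2 FPKM) and Psmb4 (61.2 FPKM). Psmc3ip was the lowest member past the filter, with a mean of 1.12 FPKM. By role, the median member level was 47.7 FPKM in the immunoproteasome group, 34.9 FPKM in the beta ring, 31.6 FPKM in the ATPases, 26.1 FPKM in the alpha ring, 19.8 FPKM in the lid and 6.74 FPKM among assembly chaperones. In the Bcl6 experiment, Psmb2 was the highest member (mean 179 FPKM) and Psmc3ip the lowest (mean 2.74 FPKM).

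Depth, recovered from the values and rounded, was 14530000 to 17360000 reads per sorted RFP+ or RFP- library and 22510000 and 29990000 reads in the LI pair. Libraries of the Bcl6 comparison held 22100000 to 23040000 reads, those of the Prdm1 comparison 30140000 to 38390000, and those of the Tcf7 comparison 40980000 to 48210000. Prdm1 and Tcf7 were lower in their own knockouts, at 362 to 640 against 5117 to 6092 scaled reads for Prdm1 and 7757 to 7993 against 15430.3 to 15606 for Tcf7. Bcl6 was under the filter in the Bcl6 experiment (0.55 and 0.638 FPKM in knockouts, 0.772 and 0.735 FPKM in littermates), which checks those labels weakly. In the RFP experiment, the T cell gene Cd8a was at 542 to 946 FPKM over both sorts, and Cd4 and Cd8b1 together at 0.777 to 1.31 FPKM. The IEL genes Cd3e, Cd8a, Itgae, Cd160 and Gzma were not level between the sorts. In limma 1 of these 5 was called higher and 4 lower in RFP+ cells, beside 16.4% and 21.6% of all genes. Their median log2 fold change was -0.67, and Cd160 is itself part of the sort. The T cell receptor constant genes Trac and Trbc2 were not listed under these symbols in any experiment, so they could not be read. In bulk libraries such as these, fewer cells of a type and less RNA per cell cannot be told apart.

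In RFP+CD160+ against RFP-CD160- cells, 3 members rose and 9 fell of 48 tested. Psmg1, an assembly chaperone, rose most, and Psme1 and Psmb8 of the immunoproteasome group rose by smaller steps. The 9 that fell were the ATPases Psmc1, Psmc3 and Psmc4, the alpha subunits Psma5, Psma1 and Psma2, the beta subunit Psmb1, the lid subunit Psmd8 and the assembly chaperone Psmd10. The call was an adjusted p under 0.05 in limma (Benjamini-Hochberg over all 9717 genes tested). Of all genes tested, 38.0% were called, 16.4% higher and 21.6% lower, so the members' 12 calls of 48 lie below the background. Of the 12, 6 were also called in the same direction under 4 other scalings: Psmg1, Psme1 and Psmb8 higher, and Psmc1, Psmc3 and Psma5 lower. Each of those scalings moved all genes upward by a median of 0.02 to 0.15, which favours higher calls over lower ones.

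**Figure D1:**
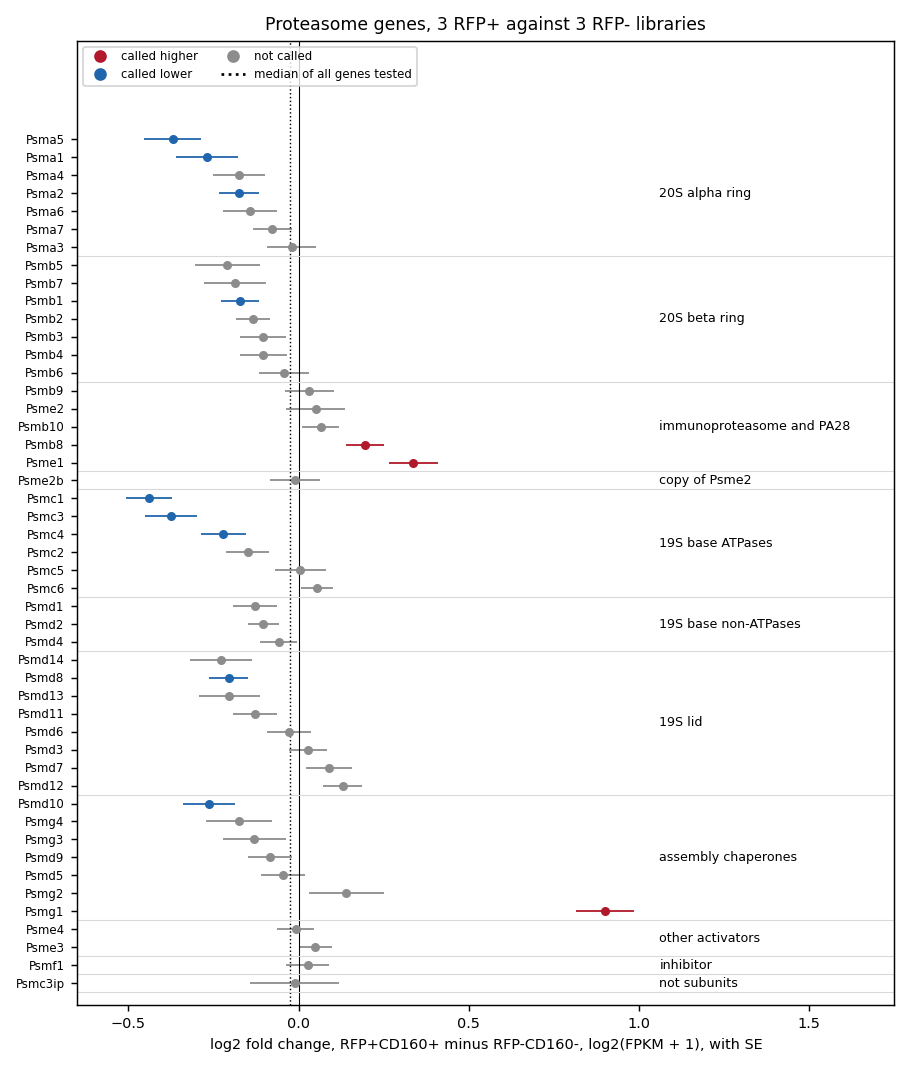
Log2 fold change of each tested proteasome gene, RFP+CD160+ minus RFP-CD160- cells (x axis, log2(FPKM + 1) scale, points with standard error), grouped by role, with 3 libraries per group. All 7 alpha and 7 constitutive beta subunits lie left of 0 here (3 and 4 of them turn positive with equal library totals), the 5 immunoproteasome genes lie right of it, and Psmg1 stands apart at 0.90.

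Differences of the members were small. The median log2 fold change of the members was -0.09, beside -0.03 over all genes, and the median size was 0.13 beside 0.17. Psmg1 was the single member beyond 0.5 on the log2 scale (2.08% of members), where 14.1% of all genes were. For 43 of 48 members (89.6%) the 95% interval of the log2 fold change lay within ±0.5, as it did for 70.7% of all genes. Groups did not overlap for 22 members, 5 higher and 17 lower in RFP+ cells, beside 51.9% of all genes (23.4% higher and 28.5% lower). Without Psmc3ip, the counts of calls were the same 3 and 9, of 47.

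The immunoproteasome group was led by Psme1, which encodes the alpha subunit of PA28. Psme1 was at 98.7, 96.7 and 89.4 FPKM in the RFP+ replicates, beside 82.3, 73.5 and 69.4 in RFP-, and the lowest RFP+ library lay above the highest RFP- library. The limma fit gave Psme1 a log2 fold change of 0.34 ± 0.07 (SE), with an adjusted p of 0.00799. Psmb8, the inducible counterpart of Psmb5, was at 51.9, 51.5 and 49.6 FPKM in the RFP+ sort and at 47.2, 42.1 and 44.1 FPKM in the RFP- sort, also without overlap. The limma fit gave Psmb8 0.20 ± 0.06 (SE) on the log2 scale, with an adjusted p of 0.0263, and 4 of the 6 fits that leave out a library lost the call, with adjusted p up to 0.0989.

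The other 3 genes of the group were not called. Psmb10, the inducible counterpart of Psmb7, was at 78.6, 77.2 and 72 FPKM in the RFP+ replicates, beside 73.8, 69.7 and 74.1 in RFP-, which overlap. Its log2 fold change was 0.06 (limma adjusted p = 0.379, 95% interval -0.06 to 0.19). Psmb9, the counterpart of Psmb6, was at 29.2, 33.9 and 28 FPKM in the RFP+ sort and at 29.1, 29.3 and 30.4 FPKM in the RFP- sort, with a log2 fold change of 0.03 (limma adjusted p = 0.758, interval -0.14 to 0.20). Psme2, the beta subunit of PA28, was at 47.8, 44.6 and 38.2 FPKM in the RFP+ replicates, beside 44.9, 40.9 and 39.9 in RFP-, with a log2 fold change of 0.05 (limma adjusted p = 0.672, interval -0.15 to 0.25). Psmb9 and Psmb8 lie side by side with the peptide transporter gene Tap1 on chromosome 17, and Tap1 itself had a log2 fold change of 0.03 (limma adjusted p = 0.611).

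The constitutive counterparts were not called either. Psmb5 carries the chymotrypsin-like site and was at 32.9, 33.8 and 35 FPKM in the RFP+ sort and at 46.5, 36.2 and 36.2 FPKM in the RFP- sort. The groups did not overlap, and the first RFP- library stood above the other two. The log2 fold change of Psmb5 was -0.21 (limma adjusted p = 0.118, 95% interval -0.43 to 0.01). Psmb6 had a log2 fold change of -0.04 (adjusted p = 0.67) and Psmb7 of -0.19 (adjusted p = 0.142) in the same limma fit.

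**Figure D2:**
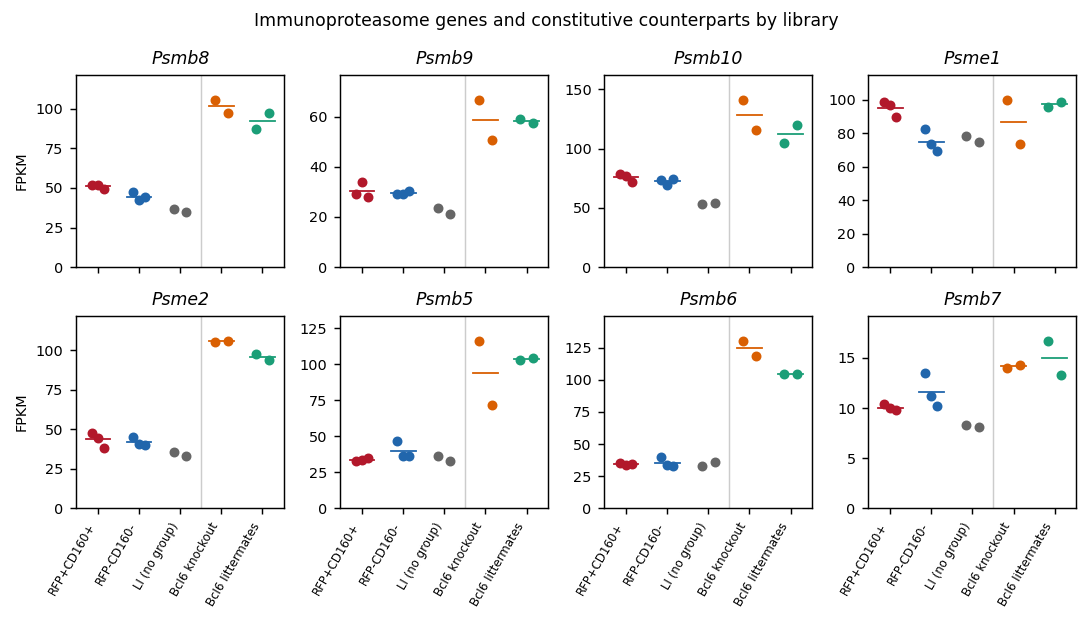
FPKM (y axis, from 0) of the 5 immunoproteasome genes and of Psmb5, Psmb6 and Psmb7 in each library of the FPKM tables, with points for libraries and lines for group means, and a grey line between separately made experiments. Psme1 and Psmb8 sit higher in all 3 RFP+ than in all 3 RFP- libraries, and the LI libraries sit below all 6 sorted libraries for Psmb8, Psmb9, Psmb10 and Psme2.

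Within a library, the inducible share of a catalytic pair does not depend on the scaling between libraries. Psmb8 made up 61.2, 60.4 and 58.7% of Psmb8 plus Psmb5 FPKM in RFP+ libraries and 50.4, 53.8 and 54.9% in RFP- libraries, so the groups did not overlap. In the LI libraries the share was 50.3 and 51.1%. Psmb5 has near copies in other genes over 88.4% of its transcript, and its level relative to the median member in the scaled-read tables was 0.355 times that in the FPKM tables, while that of Psmb8 was 2.02 times, so the level of this share depends on the kind of table. Psmb10 made up 88.3, 88.6 and 88.04% of Psmb10 plus Psmb7 in RFP+ libraries and 84.6, 86.2 and 87.9% in RFP- libraries, again apart but by less than 1 percentage point at the nearest. The share of Psmb9 in Psmb9 plus Psmb6 was 45.3, 50.3 and 45.01% in RFP+ and 42.3, 46.5 and 47.9% in RFP- libraries, which overlap. The 5 immunoproteasome genes together held 21.6 to 23.4% of the members' FPKM in the RFP+ sort, above the 19.2 to 19.8% of the RFP- sort. These shares are given as a description, with no test.

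Psmg1 (PAC1), which with Psmg2 forms the chaperone that seeds the alpha ring, lies on chromosome 16 from 95979933 to 95990960 (GRCm38, minus strand). It was at 9.64, 9.32 and 8.28 FPKM in the RFP+ replicates, beside 4.01, 4.29 and 4.93 in RFP-. All 3 RFP+ libraries were above all 3 RFP- libraries, with means of 9.08 ± 0.71 and 4.41 ± 0.47 FPKM (SD, n = 3 each). In limma this was 0.90 ± 0.09 on the log2 scale (SE), with an adjusted p of 0.000126, and 0.85 to 1.04 over 14 alternatives, each of which called it. The values rest on 182 to 194 reads per RFP+ library and 89 to 115 per RFP- library, and no other annotated transcript carried a near copy of Psmg1. In the Bcl6 experiment Psmg1 was at 13.8 and 15.8 FPKM in knockouts and 13.0 and 13.1 FPKM in littermates (log2 fold change 0.17, limma adjusted p = 0.949). The partner Psmg2 was at 17.9, 22.5 and 18.5 FPKM in the RFP+ sort and at 17.1, 15.7 and 20.3 FPKM in the RFP- sort, which overlap (log2 fold change 0.14, limma adjusted p = 0.347). Psmg3 and Psmg4, which form the second chaperone pair of the alpha ring, had log2 fold changes of -0.13 (adjusted p = 0.302) and -0.18 (adjusted p = 0.185) in the same limma fit.

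**Figure D3:**
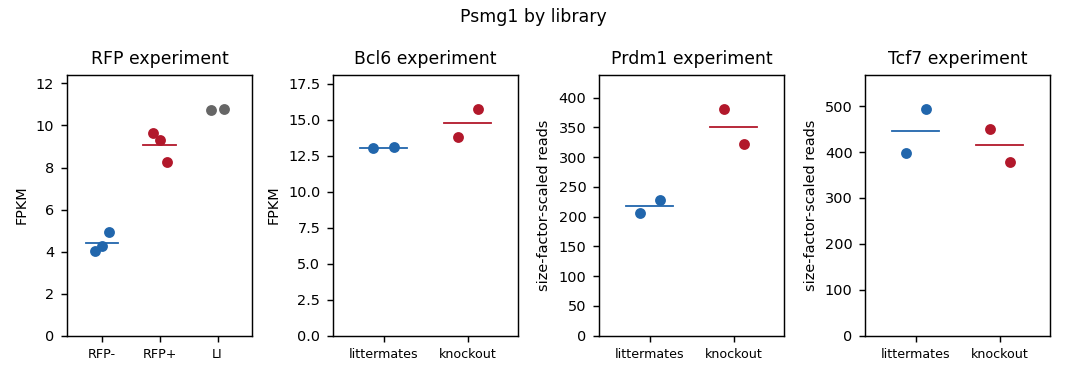
Psmg1 by library in the 4 experiments (y axes from 0, FPKM in the first 2 panels and size-factor-scaled reads in the last 2), with points for libraries and lines for group means. RFP+ libraries (8.28 to 9.64 FPKM) and both LI libraries lie above the RFP- libraries (4.01 to 4.93 FPKM), and both Prdm1 knockout libraries lie above both littermates.

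Among the 6 ATPases of the regulatory particle, 3 fell and 3 were not called, where 21.6% of all genes were called lower. Psmc1 was at 30.1, 30.7 and 26.1 FPKM in the RFP+ replicates, beside 40.2, 39.7 and 38.9 in RFP-, a gap wider than the range within either group. Limma put the difference at -0.44 ± 0.07 on the log2 scale (SE), with an adjusted p of 0.00147. Psmc3 was at 36.1, 35.6 and 40.5 FPKM in the RFP+ sort and at 53.6, 46.9 and 45.9 FPKM in the RFP- sort (log2 fold change -0.38 ± 0.08 (SE), limma adjusted p = 0.00605). Psmc4 had a log2 fold change of -0.22 (limma adjusted p = 0.0306). Psmc2, Psmc5 and Psmc6 were at -0.15, 0.01 and 0.05 and were not called. The protein ring holds the 6 ATPases in equal numbers. Psmc3 overlaps Slc39a13 on the opposite strand over 4579 bases, and Psmc1 has near copies in 2 pseudogenes over 82% of its transcript, so reads of these genes may be shared with others.

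In the core particle, 3 of 7 alpha and 1 of 7 constitutive beta subunits tested were called, all lower in RFP+ cells. Over all genes tested 21.6% were called lower, and 45.8% had a positive log2 fold change. All 14 log2 fold changes were negative, but 3 alpha and 4 beta subunits turned positive when library totals were made equal. Psma5 was at 23, 21.7 and 21.6 FPKM in the RFP+ replicates, beside 32.3, 29.2 and 25.4 in RFP-, without overlap, and limma put it at -0.37 ± 0.08 on the log2 scale (SE), with an adjusted p of 0.0101. Psma5 has near copies in 2 pseudogenes over 76.5% of its transcript. Psma1 (-0.27, adjusted p = 0.0477), Psma2 (-0.17, adjusted p = 0.0479) and Psmb1 (-0.17, adjusted p = 0.0387) sat just inside the threshold of the limma fit, and each lost its call under 10 to 12 of the 14 alternatives. Psma3 had the smallest difference of the alpha ring, with a log2 fold change of -0.02 (limma adjusted p = 0.839).

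Of the lid, the base subunits that are not ATPases and the other regulators, Psmd8 and Psmd10 were called. Psmd8, a lid subunit, had a log2 fold change of -0.21 (limma adjusted p = 0.0248) and Psmd10, the chaperone gankyrin, of -0.26 (limma adjusted p = 0.0276). Psmd14, the deubiquitinase of the lid, had -0.23 without a call (limma adjusted p = 0.0842). Psmd8 was at 22.8 to 24.6 FPKM in RFP+ and 26.2 to 29 FPKM in RFP- libraries, and Psmd10 at 9.18 to 11.2 FPKM and 11.8 to 13 FPKM, so neither overlapped. Over the 8 lid genes the log2 fold changes ran from -0.23 to 0.13, with 3 positive and 5 negative. At the upper end stood Psmd12, a lid scaffold gene, at 20.2, 21.1 and 21.6 FPKM with RFP and 19.6, 19.7 and 18 FPKM without it, apart but not called (0.13, limma adjusted p = 0.107). The genes Psmd1, Psmd2 and Psmd4 of the base, which are not ATPases, ranged from -0.13 to -0.06, and none was called. The nuclear activator Psme3, the activator Psme4 and the inhibitor Psmf1 had log2 fold changes of 0.05, -0.01 and 0.03, with limma adjusted p from 0.461 to 0.918.

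The sign of small differences depended on how libraries were scaled. Granzyme genes weigh on these totals: Gzmb plus Gzma made up 7.32 to 8.27% of a library's summed FPKM in the RFP- sort, but 0.0793 to 0.18% in the RFP+ sort. Giving each library the same FPKM total moved the log2 fold change of all genes by a median of 0.15, and then 9 members were called higher and 3 lower, beside 3300 higher and 1171 lower over all genes. Median-of-ratios scaling called 3 members higher and 6 lower, beside 1803 and 1873 of all genes. Quantile normalization called 4 and 4, beside 2014 and 1747. Centring on genes at 5 FPKM or more, a scaling chosen after the data were seen, called 3 and 5, beside 1921 and 1759. In all, 17 of 48 members changed sign between the scalings, and none of the 5 immunoproteasome genes did. As the other scalings moved all genes upward, a member positive as deposited could hardly turn negative, and no such member did. The steady sign of the 5 is thus not particular to them. The members' median minus that of all genes was -0.07 to -0.03 under each of the 5 scalings, and the members called under all 5 were the 6 named above. Psmg1, Psme1, Psmc1, Psmc3 and Psma5 were also called in all 6 fits that leave out a library.

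**Figure D4:**
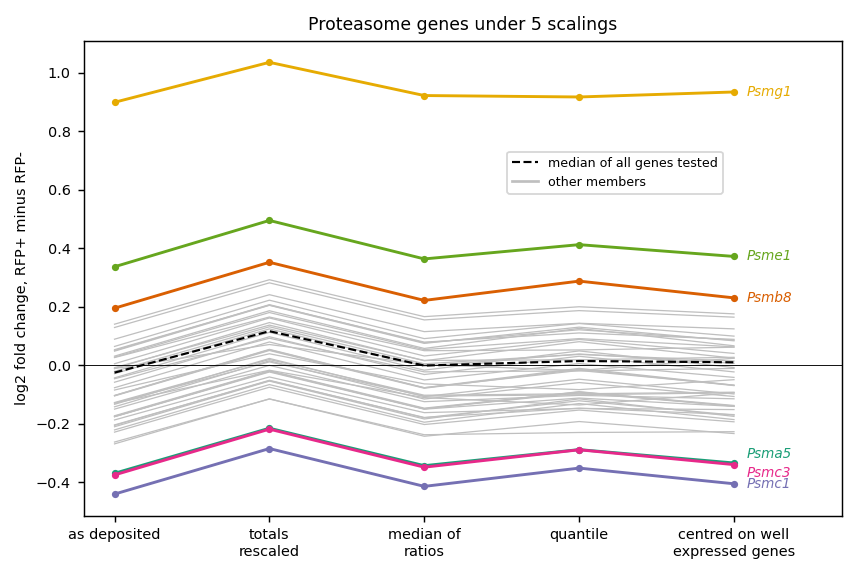
Log2 fold change (y axis, RFP+ minus RFP-) of each tested member under 5 scalings of the same libraries (x axis). Coloured lines are the 6 members called the same way under all 5 scalings, grey lines are the other members, and the dashed line, the median of all genes tested, moves from -0.03 to 0.12 when library totals are made equal.

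The first RFP- library stood apart in the members. It was the highest of its group for 34 of 48 members, with a median deviation of 0.09 on the log2 scale from the group mean, while the second was the highest for 1 and the third for 13. Without it, 3 members were called higher and 4 lower, beside 15.6% and 19% of all genes. Leaving out the second RFP+ library gave 3 lower calls (17.1% of all genes), and leaving out the third gave 4 (19.9%). The proliferation gene Mki67 was at 14.2 FPKM in the first RFP- library and at 6.46 and 7.52 FPKM in the other RFP- libraries, against 1.70 to 2.36 FPKM in RFP+ libraries. Of the list of cell cycle genes, 5 of 7 tested fell in RFP+ cells, beside 21.6% of all genes. The summed level of the list was 96.4 to 103 FPKM in RFP+ and 116 to 157 FPKM in RFP- libraries. Of 6 myeloid markers 3 could be tested, and these fell (summed level of the list 36.2 to 43.7 against 53.3 to 58.9 FPKM). The others were below the filter or, for Adgre1, not listed. Of 8 epithelial markers tested 1 rose and 2 fell (104 to 123 against 100.3 to 206 FPKM). No marker of these lists was at 0 in all libraries. Their part in the differences of the members was not tested.

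Genes that work with the proteasome were read as 4 lists, to be set beside the 16.4% of all genes called higher and 21.6% called lower. Of 17 proteasome-associated genes tested, 3 rose and 2 fell in RFP+ cells. Zfand2a, a heat-shock-induced proteasome adaptor, had a log2 fold change of 0.27 (adjusted p = 0.0255) and Uchl5, a deubiquitinase of the regulatory particle, of 0.19 (adjusted p = 0.0274). Akirin2, which brings proteasomes into the nucleus, had -0.23 (adjusted p = 0.00799) and Ecpas, a proteasome scaffold, -0.21 (adjusted p = 0.0172), all in the limma fit. Pomp, the maturation factor of the core particle, was at 11.4, 10.9 and 9.83 FPKM in the RFP+ sort and at 13.7, 12.3 and 11.5 FPKM in the RFP- sort, apart but not called (-0.20, limma adjusted p = 0.0786).

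Of 9 genes that control proteasome transcription, 2 rose and 2 fell. Maff and Mafk, small MAF partners of NRF1 and NRF2, rose by 1.67 and 1.40 on the log2 scale (limma adjusted p = 1.06e-05 and 0.000109). Maff was at 38.5, 28.4 and 35 FPKM in the RFP+ replicates, beside 9.59, 10.04 and 10.2 in RFP-. Ngly1, the glycanase that activates NRF1, fell by 0.40 (limma adjusted p = 0.0125). Nfe2l1 itself fell by 0.20 (limma adjusted p = 0.0409), from 26.7, 30.5 and 27.9 FPKM in RFP- to 22.9, 25.6 and 24.8 FPKM in RFP+ libraries.

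Of 9 genes of ubiquitin supply, Rps27a and Ubb, both of which encode ubiquitin, rose by 0.48 and 0.19 (limma adjusted p = 0.000353 and 0.0288), and none fell. Of 14 genes of class I antigen processing and its control, 4 rose and 2 fell. Irf1, an interferon-responsive activator of immunoproteasome genes, was at 91.8, 82.1 and 92.3 FPKM in the RFP+ sort and at 50.3, 61.4 and 59.4 FPKM in the RFP- sort (0.63, limma adjusted p = 0.000716). The loading-complex genes Pdia3 and Calr fell by 0.25 and 0.18 (limma adjusted p = 0.0042 and 0.0224). Nlrc5, the class I transactivator, had a log2 fold change of -0.03 (limma adjusted p = 0.619). Of the genes named from these lists, Maff, Mafk, Rps27a and Irf1 were called under all 14 alternatives. Akirin2, Ecpas, Nfe2l1, Pdia3 and Calr stayed negative under each of them, and with library totals made equal Nfe2l1 was at -0.05 (limma adjusted p = 0.594), Akirin2 at -0.07 (limma adjusted p = 0.275) and Calr at -0.02 (limma adjusted p = 0.767).

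The LI libraries, made on the same scale, are given as values with no test. Both LI values lay above all 6 sorted libraries for 5 of 49 members (10.2%) and below all 6 for 17 (34.7%), beside 21.5% above and 20.5% below over 10256 genes at 1 FPKM or more. Above were Psmg1 (10.8 and 10.8 FPKM), the lid subunits Psmd3 and Psmd7, the chaperone Psmd9 and the activator Psme3 (47.1 and 48.7 FPKM). Below were Psmb8 (36.7 and 34.6 FPKM), Psmb9 (23.7 and 21.3 FPKM), Psmb10 (53.3 and 54.2 FPKM) and Psme2 (35.9 and 33.3 FPKM) as well as 6 of the 7 alpha subunits past the filter. Psme1 was at 78.6 and 74.9 FPKM, within the range of the sorted libraries. Gzma and Gzmb took 0.0988 and 0.106% of FPKM in the LI libraries, and the members together 0.502 and 0.498%, beside 0.497 to 0.522% in RFP- and 0.533 to 0.55% in RFP+ libraries.

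In Bcl6 knockout against littermate IELs, no member was called of 48 tested in limma, where 0.418% of all genes were called, 0.0313% higher and 0.387% lower. At an unadjusted p under 0.05 there was 1 member, against 5.84% of all genes. Log2 fold changes were positive for 35 members (72.9%), beside 55.4% of all genes. Groups did not overlap for 19 members, all higher in the knockout, beside 33.0% of all genes (19.0% higher and 14.0% lower). The median log2 fold change was 0.12 for the members and 0.03 for all genes. With 2 libraries a group the precision was low: the 95% interval lay within ±0.5 for 19 members (39.6%) and for 27.9% of all genes.

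The largest difference in the Bcl6 experiment was that of Psme3, the nuclear activator PA28γ. Psme3 was at 8.12 and 13.2 FPKM in knockouts and 6.65 and 6.19 FPKM in littermates (log2 fold change 0.62 ± 0.23 (SE), limma adjusted p = 0.727). Psmd3, a lid subunit, had the most negative value, with 24.5 and 14.9 FPKM in knockouts and 20.8 and 24.8 FPKM in littermates (-0.24, limma adjusted p = 0.949). Psme4, which encodes the activator PA200, was at 2.52 and 4.44 FPKM in knockouts and 2.45 and 2.11 FPKM in littermates (0.42, limma adjusted p = 0.941). All 6 ATPases had positive values, from 0.08 to 0.33, and in 4 of them both knockout libraries lay above both littermates. Psmc1 had the largest log2 fold change of these, at 70.3 and 82.6 FPKM in knockouts against 61.4 and 59.2 FPKM (0.33, limma adjusted p = 0.899). The knockout libraries differed from each other in Psme3, Psme4 and Psmd3, and also in Psmb5, at 116 and 71.7 FPKM beside 103 and 104 FPKM in littermates.

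None of the 5 immunoproteasome genes was called, and 3 had positive and 2 negative log2 fold changes. Psmb8 was at 106 and 97.4 FPKM in Bcl6 knockouts and 86.9 and 97.1 FPKM in littermates (log2 fold change 0.14, 95% interval -0.22 to 0.50). Psmb9 was at 66.7 and 50.6 FPKM against 58.9 and 57.6 FPKM, and Psmb10 at 141 and 116 FPKM against 105 and 120.2 FPKM. Psme1 was at 100.1 and 73.4 FPKM against 95.7 and 98.8 FPKM, and Psme2 at 105 and 106 FPKM against 97.3 and 93.7 FPKM. Limma adjusted p was 0.949 or more for all 5, and the second knockout library was below both littermates for Psmb9 and Psme1. Psmb6 (0.25) and Psmb7 (-0.07) were not called either (limma adjusted p = 0.949 and 0.979). Without the first knockout library 3 members were called higher and 3 lower, with 730 and 832 genes in all: Psme3 (0.94), Psme4 (0.73) and Psmc1 (0.45) higher, and Psmd3 (-0.58), Psmb5 (-0.52) and Psme1 (-0.40) lower. That fit rests on 1 knockout library, which is assumed to vary like the littermates, and these genes are named because they were called there. Nfe2l1 (-0.43) and Pomp (0.22) were not called (limma adjusted p = 0.924 and 0.949), nor was any other gene of the 4 lists around the proteasome. Of 12 epithelial markers 1 fell in the Bcl6 knockout (summed level 210.4 to 245 against 246 to 276 FPKM). Of 8 cell cycle genes none was called, but Mki67, Top2a, Birc5, Ccnb1 and Cdk1 were higher in both knockouts than in both littermates (Top2a at 5.2 and 6.49 against 3.71 and 3.81 FPKM), and the summed level of the list was 112 to 121 against 111 to 112 FPKM. Cd4 was at 1.76 and 1.08 FPKM in knockouts and 0.0863 and 0.179 FPKM in littermates (limma adjusted p = 0.117), and 2 of 3 myeloid markers were apart and higher (summed level 169.9 to 171 against 138 to 148 FPKM). Their part in the members' values was not tested.

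In Prdm1 knockout against littermate IELs, no member was called of 48 tested in limma, where 6.84% of all genes were called, 4.29% higher and 2.54% lower. At an unadjusted p under 0.05 there were 2 members (20.6% of all genes). Groups did not overlap for 3 members higher and 9 lower, beside 52.4% of all genes (21.8% higher and 30.6% lower). The median log2 fold change was -0.04 for the members and -0.04 for all genes, and the 95% interval lay within ±0.5 for 32 members (66.7%), beside 48% of all genes.

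Psmg1 had the largest difference. It was at 381 and 321 scaled reads in Prdm1 knockouts and 206 and 229 in littermates, with no overlap. Limma gave Psmg1 0.69 ± 0.19 on the log2 scale (SE), with an adjusted p of 0.0849, outside the threshold. On the reads recovered from the table, Psmg1 had 0.73 with an adjusted p of 0.0774 in edgeR and of 0.0319 in DESeq2. Psmg1 was the single member beyond 0.5 on the log2 scale (2.08% of members), where 15.3% of all genes were. Psmg2 was at 851 and 950.01 scaled reads in Prdm1 knockouts and 875 and 973 in littermates (log2 fold change -0.04, limma adjusted p = 0.899).

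Psmc3 was the other member at an unadjusted p under 0.05, at 3185 and 3223 scaled reads in Prdm1 knockouts and 3634 and 4124 in littermates (log2 fold change -0.27, limma adjusted p = 0.192). Psmg3 had the most negative value (-0.37, limma adjusted p = 0.406). By role, log2 fold changes were negative for 6 of 7 constitutive beta subunits, 5 of 6 ATPases and 7 of 8 lid subunits, and positive for 5 of 7 alpha subunits, with none called. These signs depend on the scaling: over all members 17 of 48 were positive as deposited and 27 with library totals made equal. Of all genes, 42.5% were positive as deposited, so negative signs prevailed in the whole table. The immunoproteasome genes were not called. Psmb8 was at 4975 and 6032 scaled reads in knockouts and 4668 and 6064 in littermates (log2 fold change 0.04, 95% interval -0.33 to 0.41). Psmb9 (0.02), Psmb10 (-0.06), Psme1 (0.17) and Psme2 (0.32) had limma adjusted p from 0.626 to 0.941, and in each of these 5 genes the groups overlapped. Psmb5, Psmb6 and Psmb7 had log2 fold changes of -0.18, -0.11 and -0.02 (limma adjusted p from 0.708 to 0.953). The first littermate library was lower than the second for 45 of 48 members, by a median of 0.11 from their mean on the log2 scale. Of the genes around the proteasome Mafk was called, at 0.68 (limma adjusted p = 0.0314). Nfe2l1 (-0.13) and Pomp (0.06) were not (limma adjusted p = 0.489 and 0.922). Epithelial markers were called higher in 8 of 12 tested, and 9 were apart and higher, beside 21.8% of all genes. Their summed level was 19390 to 24720 scaled reads in knockouts and 15770 to 15900 in littermates. Cdh1 (means 10124 and 10497) and Epcam (2787 and 2761) make up much of the sum and differed little. The 8 called markers were at 2.34 (Fabp2) to 4.51 (Krt8) times the littermate mean. Of 4 myeloid markers Itgam fell (mean 58.9 against 644), and Lyz2 was apart and higher without a call (171 against 42.2). In the littermates Csf1r averaged 8.45 and Adgre1 7.42 scaled reads, far below Itgam. Whether the Itgam reads came from myeloid cells or from the IELs was not tested. Cd68 and Cst3 were not called, and Csf1r and Adgre1 were below the filter. Cd4 was apart, at 48.7 and 66.5 scaled reads in knockouts and 6.21 and 8.63 in littermates, but did not pass the filter. Cd8b1 overlapped (limma adjusted p = 0.686). Of 5 IEL genes tested, 4 were apart and lower in the knockout, beside 30.6% of all genes, and Cd160 was apart and higher. Gzma was called lower, while Cd3e (-0.43), Cd8a (-0.30) and Itgae (-0.29) were not called. The part of these genes in the members' values was not tested.

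In Tcf7 knockout against littermate IELs, no member was called of 49 tested in limma, where 2.72% of all genes were called, 1.49% higher and 1.23% lower. At an unadjusted p under 0.05 there were 5 members (12.6% of all genes). Groups did not overlap for 12 members higher and 5 lower, beside 41.6% of all genes (20.9% higher and 20.7% lower). The 95% interval lay within ±0.5 for 47 of 49 members (95.9%), the largest share of the 4 comparisons, beside 68.4% of all genes. That share depends on the size of the differences as well as on precision, and no member's log2 fold change was beyond 0.5. The 5 members at an unadjusted p under 0.05 were Psma6 of the alpha ring, the scaffold genes Psmd1 and Psmd2, and the lid genes Psmd8 and Psmd12, all higher in the knockout by 0.13 to 0.20 on the log2 scale. Psmd12 had the smallest limma adjusted p of the members (0.293), at 2475 and 2452 scaled reads in knockouts and 2219 and 2169 in littermates.

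Psma5 had the largest difference, with 90.6 and 129.7 scaled reads in Tcf7 knockouts and 86.6 and 76.2 in littermates (log2 fold change 0.41, limma adjusted p = 0.647). Psme2 had the most negative, with 405 and 412 scaled reads in knockouts and 463 and 466 in littermates (-0.18, limma adjusted p = 0.651). Psmb8 was at 8928 and 8805 scaled reads in knockouts and 9445 and 8694 in littermates (-0.03, 95% interval -0.15 to 0.09). Psmb9 was at 4580.5 and 4322 against 4774 and 4595.5 scaled reads (-0.07), Psmb10 at 6625 and 6344 against 6675 and 5532 (0.09), and Psme1 at 2636 and 2561 against 2710.4 and 2443.5 (0.01). Psmb5, Psmb6 and Psmb7 had log2 fold changes of 0.01, 0.03 and 0.17 (limma adjusted p from 0.715 to 0.984). Without the first littermate library, Psmc3 (0.31) and Psmb10 (0.23) were called higher, in a fit that called 370 genes higher and 357 lower of 15628. That fit leaves 1 littermate, which is assumed to vary like the knockouts. Psmg1 was at 451 and 379 scaled reads in knockouts and 398 and 495 in littermates, which overlap (-0.10, limma adjusted p = 0.858). Nfe2l1 (-0.02) and Pomp (0.09) were not called (limma adjusted p = 0.932 and 0.853), nor was any other gene of the 4 lists around the proteasome. Epithelial markers were called higher in 3 of 12 tested (summed level 30780 to 31320 against 25560 to 25670 scaled reads). Groups did not overlap for 11 of the 12, all higher in the knockout, beside 20.9% of all genes higher. Much of the sum is Cdh1, with means of 15828 and 14327. Of 4 myeloid markers Itgam was called higher (mean 7984 against 5151). Lyz2 and Cd68 were apart and higher without a call, Cst3 overlapped, and Csf1r and Adgre1 were below the filter. Cd4 was at 55.7 and 50.2 scaled reads in knockouts and 22.8 and 11.04 in littermates. Cd8b1 was at 303 and 263 against 247 and 136. Both were apart and higher without a call (limma adjusted p = 0.14 and 0.304). The part of these markers in the members' values was not tested.

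The Prdm1 effect minus the Tcf7 effect, tested in 1 limma fit over the 8 libraries of both tables as an alternative chosen after the data were seen, called 1027 of 10841 genes and no member of 48. Each effect is taken within its experiment, but the experiments were scaled separately. A single fit also takes the spread between libraries to be the same in both. The smallest adjusted p of a member was 0.0801. For Psmg1 the difference was 0.79 on the log2 scale (limma adjusted p = 0.0801), and 3 members were at an unadjusted p under 0.05, against 23.4% of all genes.

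The level of a member relative to the others was not the same in both kinds of table. Scaled reads of the Prdm1 and Tcf7 tables were divided by exon length, and each member was set against the median member. The scaled-read tables then gave Psmb3 a relative level of 0.0922 times that of the FPKM tables, Psma5 0.101 times, Psma2 0.189 times, Psme2 0.193 times, Psma3 0.269 times, Psmc1 0.292 times and Psmb5 0.355 times. Psme2b, a near copy of Psme2, was at 5.04 times, Psme4 at 3.66 times and Psme3 at 3.65 times. These ratios average the RFP and Bcl6 experiments, which differed for Psme3 and Psme4. Psme3 was at 170.8% of the median member in the RFP but 17.43% in the Bcl6 experiment, and at 351.7 and 336.1% in the scaled reads. Psme4 was at 38.8% and 5.876%, and at 91.95 and 71.38% in the scaled reads. For both genes the ratio thus rests partly on the low Bcl6 values. Of 49 members, 11 have another annotated transcript that shares at least 100 bases at 95% identity or more, and in 9 the copies cover at least 50% of the transcript. Without Psme2b, 6 of the 8 such members were under 0.5 times, with a median of 0.324 times, beside 4 of 39 other members and a median of 1.62 times. Values of these genes are uncertain where reads of copies were shared or dropped, and how the tables treated such reads is not given in the sources used here.

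**Figure D5:**
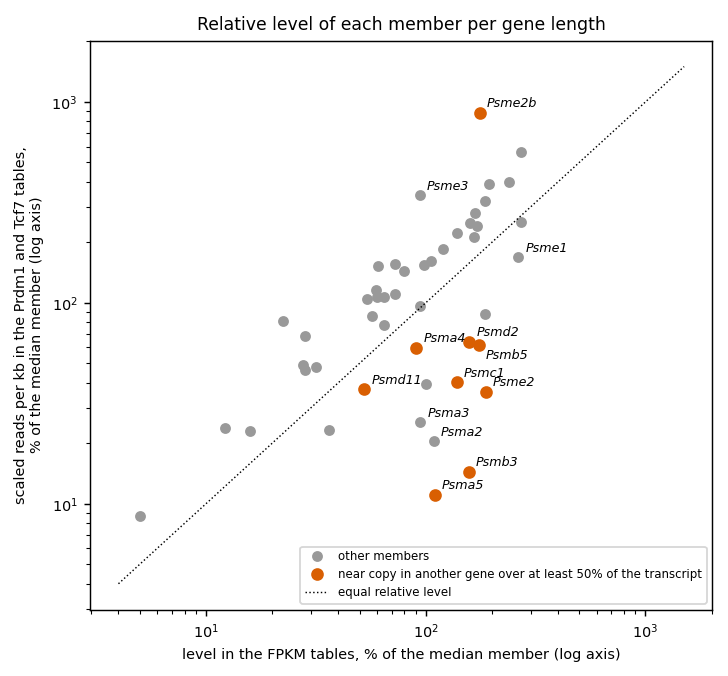
Level of each member relative to the median member (both axes in percent, log scale), FPKM tables on the x axis and scaled reads per kilobase of the Prdm1 and Tcf7 tables on the y axis. Members with a near copy over at least 50% of their transcript (orange) lie below the line of equal level, except Psme2b.

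Overlapping genes are a further limit. By the GENCODE annotation 24 members overlap another gene, 19 of them on the opposite strand. Psmb8 shares 2139 bases with the antisense gene Gm20496, Psmb10 2710 bases with the antisense gene Gm16156 and Psmb9 212 bases with Tap1. Whether the counting used strand is not given in the sources used here, so reads of such pairs may not be told apart.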

How the data were processed

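Bulk RNA-seq of sorted IELs was measured in 20 libraries. Tools listed in the submitters' processing notes, without roles, are Trim Galore 0.4.4, RSEM, Bowtie2, Subread, featureCounts and DESeq2, with mm10. For the RFP, LI and Bcl6 libraries the authors deposited FPKM. The Prdm1 and Tcf7 values were deposited under that name but hold a signal: reads divided by 1 size factor per library (100% whole multiples of 1 read, tolerance 0.01). Of low FPKM values, 96.7 to 97.7% were whole reads once multiplied by gene length (tolerance 0.02). Because of this mismatch the filter of 1 FPKM became 50 scaled reads in the Prdm1 and Tcf7 tables. Depth sets the counting error only. Differences were tested within an experiment, and levels across tables only relative to the median member.

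Groups came from the labels. Each experiment was fitted alone on log2(value + 1) in R 4.3.3 with limma 3.58.1 (lmFit, eBayes with trend, two-sided). P-values were adjusted by Benjamini-Hochberg over all genes tested. A gene was tested if n libraries reached the filter, n being the size of the smaller group. Fold changes are on that log2 scale and understate those of low genes. All adjusted p-values are from limma, except those of edgeR 4.0.16 and DESeq2 1.42.0 on recovered Prdm1 reads. The fit was tested on simulated data. Named are the 5 immunoproteasome genes, Psmb5 to Psmb7, up to 5 called members per direction with the smallest p, the largest uncalled ones, the highest and lowest by FPKM, up to 4 called genes per list, Nfe2l1 and Pomp. Other named members are examples chosen after their values were seen. The members and lists were chosen with earlier results of these data known. Coordinates are from GENCODE vM21 (GRCm38), promoters from RefSeq, and copies were searched with BLAST 2.17.0. Alternatives covered pseudocount, filter, scaling, trend, replicate block and leaving out each library. A gene of the class I list is not reported here by name.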

Additional observations from a re-analysis of the deposited data

How the results depend on the processing

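In the RFP comparison, 3 members were called higher and 9 lower. With library totals made equal the counts were 9 and 3, quantile normalization gave 4 lower, and centring on well expressed genes, an alternative chosen after seeing the data, gave 5 lower. Leaving out 1 library gave 2 to 3 higher and 3 to 8 lower, in fits that called 12 to 15.6% of all genes higher and 15.6 to 19.9% lower. In the Bcl6 comparison leaving out 1 library gave 0 to 3 higher and 0 to 3 lower, with the highest counts without the first knockout library. In the Tcf7 comparison it gave 0 to 2 higher. DESeq2 on recovered reads called 1 member higher in the Prdm1 comparison, Psmg1, and 1184 genes of 10969, where edgeR called 772 genes and no member. The cause was not tested. With the replicate number as a block, 2 members were called higher and 6 lower in the RFP comparison (13.3% and 17.4% of all genes), 1 higher (Psmg1, adjusted p = 0.0157) and 1 lower (Psmc3, adjusted p = 0.0262) in the Prdm1 comparison (11% and 10.7%), and 1 higher (Psmc3, adjusted p = 0.0386) in the Tcf7 comparison (3.25%). In the blocked Bcl6 fit no member was called. The numbers are not stated to pair animals: deviations of same-numbered libraries correlated across genes at -0.33 to -0.00 (RFP), -0.46 (Bcl6), 0.53 (Prdm1) and 0.06 (Tcf7). Count tests on the Tcf7 reads were not run. Over the named genes, 948 values under alternatives held no reversed call: 821 kept their side of the threshold, 98 lost a call (96 of them in the RFP comparison), 11 gained one and 18 uncalled values changed sign.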
